A study of Mus musculus with 5 samples.

Results

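Natural killer (NK) receptors, most of them of the killer cell lectin-like family, were followed in single lymphocytes of tumor-draining lymph nodes (TDLNs) and of tumors. The 9 genes, Klrd1, Klrc1, Klre1, Klrk1, Klra7, Klra8, Klrb1c, Klrg1, and Ncr1, came from a list of known receptor names, and all 9 were found once in the gene rows of each of the 5 matrices, among 32285 gene rows in TDLNs and 33696 in tumors. The list was chosen by the UMI counts of these genes in lymphocytes, with results of these data already known, so levels are given as a description, and tests are given across all genes. Droplet scRNA-Seq with 5′ chemistry gave a count of unique molecular identifiers (UMIs) for each gene and barcode, where 1 UMI marks 1 captured RNA molecule. Each of the 3 TDLN and 2 tumor reactions was loaded with 60000 cells.

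All mice were male C57BL/6J wild-type animals, 8 to 10 weeks old, and had received tumor cells under the skin. TDLNs came from mice with TRAMP-C2, a transplantable prostate cancer line, and tumors from mice with MC38, a transplantable colon cancer line. Isotype antibodies or checkpoint inhibitors (CPI, anti-CTLA4 plus anti–PD-1) were given on days 3, 6, and 9, then vehicle or the JAK1 inhibitor ABT-317 at 20 mg/kg on day 12, and tissue was taken on day 15. The paper's methods count these days from implantation, whereas its MC38 figure counts them from enrollment, once tumors had reached a set size. TDLN cells were loaded unsorted, while tumor cells were sorted by the leukocyte antigen CD45 and mixed 1:1 from both gates. Every reaction pooled hashtagged cells of several mice and treatments, and each reaction therefore counts as 1 sample. The paper states that hashtags were equally represented in the reactions, but whether the reactions of a tissue hold different mice is not stated. The p-values therefore measure the spread between reactions, which may be technical.

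CD94, the product of Klrd1, pairs with an NKG2 chain to read the nonclassical class I molecule Qa-1. With NKG2A, from Klrc1, the pair inhibits the cell, whereas NKG2D, from Klrk1, activates it when stress ligands appear on a target. Ly49 receptors come from the Klra genes, and the inhibitory ones read classical class I. NK-1.1 (Klrb1c) and NKp46 (Ncr1) are the usual surface markers of mouse NK cells. Many of these receptors also appear on activated CD8 T cells and on NKT or γδ T cells, and KLRG1, an inhibitory receptor for cadherins, marks T cells and NK cells late in their differentiation.

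Of the 9 genes, 8 lie on chromosome 6 of GRCm38. Klrb1c, Klre1, Klrd1, Klrk1, Klrc1, Klra8, and Klra7 fall in 1 cluster at chr6:128778485-130233322, Klrg1 lies apart at chr6:122270596-122282882, and Ncr1 is on chromosome 7 at chr7:4337724-4345164. Promoter windows of 300 bases, from 250 before to 50 after a start, were at hand from RefSeq (GRCm38.p6) for 7 genes in 11 entries, and none was listed for Klrd1 or Klrg1. The RUNX core (TGTGGT on either strand, so also ACCACA) was in 6 of the 11 windows and in 16.8% of all 32851 windows, and a T-box core (GTGTGA or TCACAC) was in 4 of the 11 and in 14.5% of all. Overlapping windows of 1 gene share their matches, and a match is a description of letters, not a site of binding. Windows of 3 genes that carried those letters are shown, with the letters in capitals. These 3 genes were higher in CD3-negative than in CD3-positive lymphocytes of MC38 tumors. So were Klra7 and Klra8, and their windows held neither core. Windows of Klrc1 and Klrk1 also held the RUNX core and are not shown. The main test given below called neither of them higher in CD3-negative lymphocytes of MC38 tumors.
Klre1, plus strand, chr6:129577963-129578262: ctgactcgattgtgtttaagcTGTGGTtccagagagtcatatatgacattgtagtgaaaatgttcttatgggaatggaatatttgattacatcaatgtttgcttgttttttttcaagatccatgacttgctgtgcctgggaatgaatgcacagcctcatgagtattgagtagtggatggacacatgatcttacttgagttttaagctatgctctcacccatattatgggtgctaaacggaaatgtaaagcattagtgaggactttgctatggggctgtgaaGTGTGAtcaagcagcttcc
Klrb1c, minus strand, chr6:128788592-128788891: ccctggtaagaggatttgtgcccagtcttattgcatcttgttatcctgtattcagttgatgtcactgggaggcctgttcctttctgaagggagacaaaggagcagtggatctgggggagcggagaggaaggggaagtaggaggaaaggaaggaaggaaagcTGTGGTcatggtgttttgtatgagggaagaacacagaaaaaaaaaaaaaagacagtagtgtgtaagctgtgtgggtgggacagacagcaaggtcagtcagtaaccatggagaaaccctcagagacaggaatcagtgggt
Ncr1, plus strand, chr7:4337465-4337764: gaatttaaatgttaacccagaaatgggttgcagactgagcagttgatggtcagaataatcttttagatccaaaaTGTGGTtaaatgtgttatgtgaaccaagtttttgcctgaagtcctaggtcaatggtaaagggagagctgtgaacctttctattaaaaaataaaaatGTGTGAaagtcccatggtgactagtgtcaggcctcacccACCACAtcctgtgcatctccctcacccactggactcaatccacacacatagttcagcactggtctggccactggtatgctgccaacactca

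Because several of these genes arose by duplication, all 90-base windows of their annotated transcripts were compared with those of other genes. Shared windows made up 18.6% of Klrc1, all of them with Klrc2, 16.1% of Klra8, most with the pseudogene Klra14-ps, 11.5% of Klrb1c, and 3.33% of Klra7. Klrd1, Klre1, Klrk1, Klrg1, and Ncr1 shared none. Counts of Klrc1, Klra8, and Klrb1c may be uncertain, since how reads of shared windows were counted was not given in the sources used here. The shares cover whole transcripts, also parts far from the 5′ end, so they do not measure the part of the counts affected.

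Lymphocytes were gated on genes other than the 9 receptors. A barcode needed at least 200 and fewer than 2500 genes, under 10% mitochondrial UMIs, and low UMIs of B cell, myeloid, and non-immune genes. CD3-positive lymphocytes had at least 2 UMIs of Cd3d, Cd3e, and Cd3g, and CD3-negative ones had 0. Cytolytic lymphocytes had UMIs of at least 2 of 9 genes (Nkg7, Gzma, Gzmb, Prf1, Ctsw, Il2rb, Txk, Xcl1, and Eomes), a list that NK cells and effector T cells share. TDLN reactions 1, 2, and 3 held 205, 689, and 21 CD3-positive cytolytic barcodes and 10, 24, and 1 CD3-negative ones. MC38 reactions 1 and 2 held 163 and 179 CD3-positive cytolytic barcodes and 55 and 39 CD3-negative ones. The gate was narrow in TDLNs, where 80961 barcodes with CD3 UMIs also carried B cell UMIs and were set aside.

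Gene UMIs per reaction ran from 18055617 to 435031691. Pairs of libraries shared 271 to 4842 barcode sequences, 3.84% to 8.70% of the smaller library, and cells behind a shared sequence cannot be told apart from coincidence by the barcode alone. Median UMIs per barcode differed between classes. CD3-positive cytolytic barcodes had medians of 3635, 3102, and 2671 in TDLNs and 1647 and 1299 in MC38 tumors, and CD3-negative ones had 982, 1160, and 1627 in TDLNs and 1136 and 1190 in tumors. TDLN reaction 3 holds 1 CD3-negative barcode.

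CD3-negative is a call from RNA. Of the CD3-negative barcodes, 22 of 35 in TDLNs (62.9%) and 23 of 94 in MC38 tumors (24.5%) carried UMIs of the T cell receptor constant genes Trac, Trbc1, or Trbc2, against 2.74% of TDLN B barcodes and 0.272% of MC38 myeloid barcodes. Those B and myeloid barcodes were also gated to hold no CD3 UMIs, so their shares may understate carried-over T cell RNA. Cd8a or Cd8b1 UMIs were on 22.9% of CD3-negative cytolytic barcodes in TDLNs and 27.7% in MC38 tumors. Among tumor barcodes without T cell receptor UMIs, 13 of 43 in reaction 1 and 5 of 28 in reaction 2 still held them. Leaving out T cell receptor UMIs therefore may not leave out all T cells. Tyrobp, the adaptor DAP12 of activating Ly49 receptors, was in 51.1% of CD3-negative and 20.8% of CD3-positive cytolytic barcodes of MC38 tumors. It was also in 98.4% of myeloid and 18.8% of non-immune barcodes there, and the part of free RNA in these shares was not tested. The class is therefore named by its gate and not as NK cells.

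Klrd1 RNA was found in CD3-positive and CD3-negative lymphocytes of both tissues. Its level in CD3-positive cytolytic lymphocytes was 287, 263, and 247 CPM (the UMIs of the gene scaled to those of all genes in the class) in TDLN reactions 1 to 3, and 298 and 378 CPM in MC38 reactions 1 and 2. CD3-negative cytolytic lymphocytes had 656, 463, and 2459 CPM in TDLNs, the last from a single barcode, and 545 and 561 CPM in tumors. Every CD3-negative value lay above every CD3-positive value. The test across all genes did not separate the classes, with a log2 difference (CD3-negative minus CD3-positive) of 1.17 (SE 0.35, edgeR adjusted p = 0.0921) in TDLNs and 0.74 (SE 0.29, edgeR adjusted p = 0.321) in MC38 tumors. In TDLNs the value passed when 3 cytolytic genes were asked for (2.04, edgeR adjusted p = 0.00928) and with no upper limit on genes (1.19, edgeR adjusted p = 0.0417), and it was 0.49 without reaction 3 (edgeR adjusted p = 0.636). The direction turned with DESeq2 in TDLNs (−0.45, adjusted p = 0.469) and with no upper limit on genes in MC38 tumors (−0.12, edgeR adjusted p = 0.992).

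Klrd1 RNA was found in CD8 T cells inside and outside the cytolytic gate. In TDLNs, CD8 lymphocytes with the cytolytic call had 331, 283, and 321 CPM, and those without it had 291, 309, and 173 CPM, lower in 2 of 3 reactions. Of the barcodes without the call, 46.3%, 43.3%, and 37.5% held a Klrd1 UMI. CD4 lymphocytes of the same reactions had 32.1, 33.3, and 0 CPM. B barcodes had 4.88, 1.32, and 0 CPM, with Klrd1 in 3 of 803 barcodes (0.374%). Their gate asked for no CD3 UMIs, which leaves out barcodes with carried-over T cell RNA. These values may therefore understate the background. Summed over reactions, the CD8 level of 302 CPM (exact Poisson 95% interval 270 to 336) and the CD4 level of 32.4 CPM (18.5 to 52.7) had separate intervals, both above the B interval of 0.529 to 7.49 CPM. These intervals cover counting error only.

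Klrc1, the NKG2A chain, had its higher values in different classes in the 2 tissues. CD3-positive cytolytic lymphocytes had 24.6, 16.9, and 15.4 CPM in TDLNs and 121 and 191 CPM in MC38 tumors. CD3-negative ones had 0, 371, and 3073 CPM in TDLNs and 61.7 and 144 CPM in tumors. So in each tumor reaction the CD3-positive value was the higher, whereas in TDLN reactions 2 and 3 the CD3-negative cells held more. The MC38 difference was −0.65 on the log2 scale (SE 0.46, edgeR adjusted p = 0.727), and it passed at −1.97 (edgeR adjusted p = 0.0113) with no upper limit on genes per barcode. In TDLNs Klrc1 was under the filter on low counts, and the difference was 3.35 without that filter (edgeR adjusted p = 1.72e-06), 2.50 with DESeq2 (adjusted p = 0.0193), and 4.92 without reaction 1 (edgeR adjusted p = 8.38e-07). Reaction 1 is the one where CD3-negative cells had 0, and without it Klrc1 entered the filter through the CD3-negative sums, so that value is no support. Of its 17 CD3-negative UMIs, 12 came from reaction 2 and 5 from the 1 barcode of reaction 3. T cell receptor UMIs were on 4 of the 5 Klrc1-positive CD3-negative barcodes of TDLNs and on 6 of the 12 of tumors. Without such barcodes, TDLN reaction 2 kept 1 Klrc1 UMI, reaction 1 had 0, and reaction 3 had no barcode left.

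That contrast was then tested itself, as the interaction of CD3 class and tissue over all 10 sums, a test chosen because these Klrc1 values had been seen, so it is a description of them and no independent evidence. Of 2113 genes, 15 passed (0.710%), and Klrc1 was the only one of the 7 receptors tested to pass, with a difference of differences of −4.50 on the log2 scale (SE 0.77, edgeR adjusted p = 4.79e-05). It did not pass without TDLN reaction 2 (−3.99, edgeR adjusted p = 0.0724) or without TDLN reaction 3 (−3.83, edgeR adjusted p = 0.195). The adaptor genes Tyrobp and Fcer1g passed in the same direction, at −2.24 and −2.75. They were on 26 and 37 of 915 CD3-positive cytolytic barcodes of TDLNs and could enter the filter through other sums, so this is no support. In MC38 tumors they were on 20.8% and 33.6% of CD3-positive cytolytic and 18.8% and 35.0% of non-immune barcodes. The part of free RNA in their values was not tested.

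Klrk1, the NKG2D gene, was higher in CD3-positive lymphocytes of the tumors than of TDLNs. CD3-positive cytolytic lymphocytes had 19.4, 13.5, and 15.4 CPM in TDLNs and 165 and 238 CPM in MC38 tumors, with no overlap. In CD3-negative lymphocytes it was 146, 124, and 0 CPM in TDLNs and 237 and 359 CPM in tumors. Within MC38 tumors the classes were 0.57 apart on the log2 scale (SE 0.34, edgeR adjusted p = 0.664), and the direction turned with no upper limit on genes (−0.44, edgeR adjusted p = 0.864). Klrk1 was also the receptor with the most signal in myeloid barcodes of the tumors, at 4.98 and 5.37 CPM, and it was in 145 of 7727 of them (1.88%) at median depths of 3414 and 3842 UMIs.

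Klre1 encodes a lectin-like receptor that pairs with an inhibitory or an activating partner chain in mouse NK cells. CD3-positive cytolytic lymphocytes had 15.5, 14.8, and 0 CPM in TDLNs and 41.2 and 36.8 CPM in MC38 tumors, and CD3-negative ones had 146, 216, and 0 CPM and 165 and 345 CPM. The MC38 classes did not overlap. Klre1 was not seen in any of 487 TDLN CD8 barcodes outside the cytolytic gate, which by a floor of 3 barcodes allows a share of up to 0.616%.

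**Figure D1:**
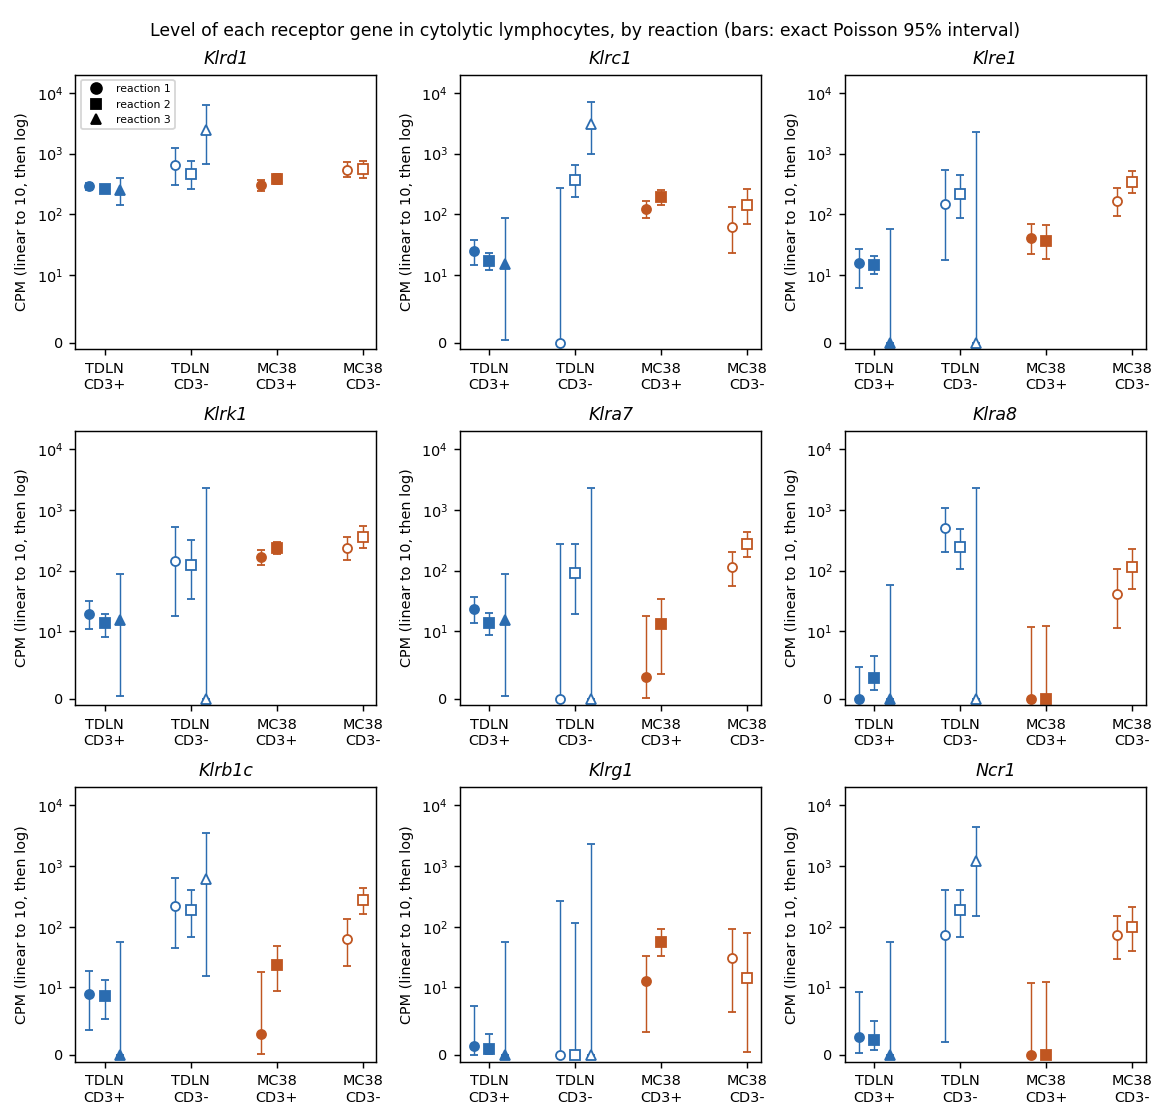
Levels of the 9 receptor genes in CPM (linear to 10, then log) in CD3-positive (filled) and CD3-negative (open) cytolytic lymphocytes of TDLNs (blue) and MC38 tumors (orange), 1 point per reaction with its exact Poisson 95% interval. Klrd1 is near 300 CPM in CD3-positive lymphocytes of both tissues, from 247 to 378 CPM, whereas Klrk1 and Klrc1 are higher in every tumor reaction than in every TDLN reaction of that class.

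Both Ly49 genes were low in CD3-positive lymphocytes, but in different ways. Klra7, the inhibitory receptor Ly49G, had 23.3, 13.9, and 15.4 CPM in CD3-positive cytolytic lymphocytes of TDLNs and 3.17 and 13.4 CPM in those of MC38 tumors. CD3-negative ones had 0, 92.6, and 0 CPM in TDLNs and 113 and 273 CPM in tumors, where the classes did not overlap. Among TDLN T cells it was highest in cytolytic cells with neither Cd4 nor Cd8 UMIs, at 76.8 and 67.2 CPM in reactions 1 and 2 and 0 in reaction 3, which held 5 such barcodes. This was not particular to Klra7. Summed over reactions, Klrc1, Klre1, Klrk1, and Klrb1c had 50.0, 45.0, 47.5, and 32.5 CPM in that subset. CD8 cytolytic lymphocytes of TDLNs had 15.6, 11.2, 10.8, and 4.32 CPM of them. Klrd1 was lower in the subset, at 223 against 295 CPM, and Klra8, Klrg1, and Ncr1 had 2, 2, and 1 UMIs there.

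Klra8, the activating receptor Ly49H, was hardly detected in CD3-positive cells. It had 0, 3.04, and 0 CPM in CD3-positive cytolytic lymphocytes of TDLNs and 0 UMIs in both MC38 reactions. CD3-negative ones had 510, 247, and 0 CPM in TDLNs and 41.2 and 115 CPM in tumors. A floor of 3 UMIs in each MC38 reaction allows CD3-positive cytolytic lymphocytes up to 9.52 and 10.0 CPM, and the CD3-negative values rest on 4 and 8 UMIs.

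Ncr1 followed the same pattern. CD3-positive cytolytic lymphocytes had 2.59, 2.17, and 0 CPM in TDLNs and 0 UMIs in both MC38 reactions, and CD3-negative ones had 72.9, 185, and 1229 CPM in TDLNs and 72.0 and 101 CPM in tumors. The CD3-negative values of the tumors rest on 7 UMIs in each reaction, beside the same floor for CD3-positive ones. Ncr1 or Klra8 was detected on 19 of 94 CD3-negative barcodes in MC38 tumors (20.2%, exact Clopper-Pearson 95% interval 12.6 to 29.8) and on 0 of 682 CD3-positive ones, which for each gene allows a share of up to 0.440% by a floor of 3 barcodes. In TDLNs it was 9 of 35 (25.7%) against 9 of 2378 CD3-positive barcodes (0.378%), all 9 of them among the 915 cytolytic ones. T cell receptor UMIs were on 4 of the 7 Ncr1-positive CD3-negative barcodes of TDLNs and on 2 of the 13 of tumors. Neither gene had a UMI in 7727 MC38 myeloid barcodes or in 803 TDLN B barcodes.

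Klrb1c, the NK-1.1 gene, was higher in CD3-negative lymphocytes as well. CD3-positive cytolytic lymphocytes had 9.05, 8.69, and 0 CPM in TDLNs and 3.17 and 23.4 CPM in MC38 tumors. CD3-negative ones had 219, 185, and 615 CPM in TDLNs and 61.7 and 273 CPM in tumors, with no overlap in either tissue.

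Klrg1 was hardly detected in TDLNs, and in tumors it was on 9 of 342 CD3-positive and 2 of 94 CD3-negative cytolytic barcodes. CD3-positive cytolytic lymphocytes had 1.29, 0.869, and 0 CPM in TDLNs and 12.7 and 56.9 CPM in MC38 tumors, and CD3-negative ones had 0 UMIs in all TDLN reactions and 30.9 and 14.4 CPM in tumors. The tumor classes overlapped. The CD3-negative values of the tumors rest on 3 UMIs in reaction 1 and 1 UMI in reaction 2, on 1 barcode each. Both barcodes carried T cell receptor UMIs, and the CD3-negative barcodes without such UMIs held no Klrg1. Within the tumors, 14 of the 17 UMIs of reaction 2 lay in 4 barcodes with neither Cd4 nor Cd8 UMIs, at 166 CPM for that subset against 11.7 CPM in reaction 1.

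**Figure D2:**
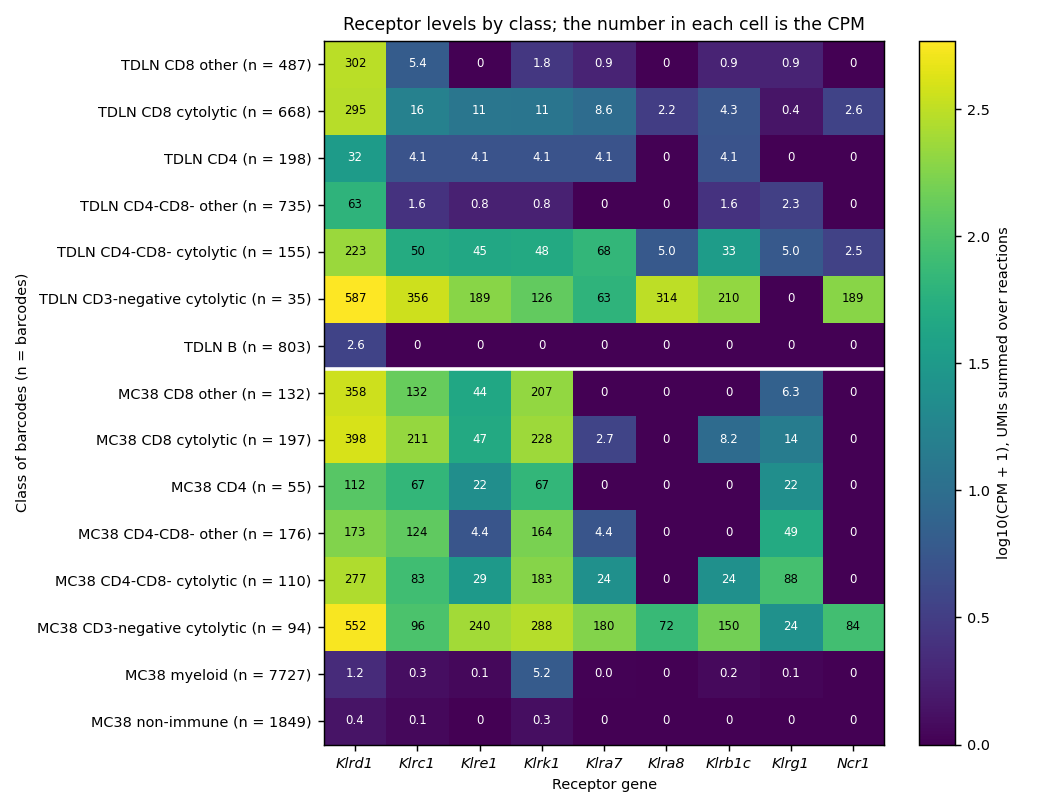
Level of each receptor gene (columns) in each class of barcodes (rows), as log10(CPM + 1) of UMIs summed over the reactions of a tissue, with the CPM printed in each cell. Klra8 and Ncr1 stand at 0 in every CD3-positive row of MC38 tumors and at 72.0 and 84.0 CPM in the CD3-negative row, while Klrd1, Klrc1, and Klrk1 are spread over CD8 and CD4 rows.

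Across all genes, CD3-negative and CD3-positive cytolytic lymphocytes of MC38 tumors differed at 70 of 3524 genes tested (1.99%; 34 higher and 36 lower in CD3-negative cells), and at 120 genes with the reaction as a block. Of the 9 receptors, 6 passed the filter on low counts, and 3 of those 6 were called, where 0.965% of all genes tested were called higher. These 3 were low in the CD3-positive sums and entered the filter through the CD3-negative ones, so neither their number nor their direction is support. Klra7 differed by 4.42 on the log2 scale (SE 0.66, edgeR adjusted p = 0.000205), Klrb1c by 3.54 (SE 0.73, edgeR adjusted p = 0.00923), and Klre1 by 2.65 (SE 0.45, edgeR adjusted p = 0.000986), each in 2 of 2 reactions. Klrb1c did not pass with DESeq2 (3.31, adjusted p = 0.339). Without the barcodes that held T cell receptor UMIs, Klra7 differed by 4.30, Klrb1c by 3.62, and Klre1 by 2.37 (edgeR adjusted p = 0.00285, 0.0327, and 0.0286). Klra8, Ncr1, and Klrg1 did not pass the filter in this comparison.

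The same comparison in TDLNs had little depth. Of 653 genes tested, 18 passed (2.76%), and Klrd1 was the only receptor above the filter. Without that filter, Klra8 (6.15), Ncr1 (5.40), Klrb1c (3.71), and Klre1 (2.80) had log2 differences with edgeR adjusted p below the threshold of 0.05, as did Klrc1. DESeq2 called Klrc1, Klra8, Klrb1c, and Ncr1, and edgeR called Klre1, Klrk1, Klra8, and Klrb1c without T cell receptor UMIs, Klre1, Klra8, and Klrb1c without reaction 3, and Klrb1c with no upper limit on genes. A gene can pass there through the CD3-negative sums alone, which rest on 35 barcodes.

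Between the tissues, CD3-positive cytolytic lymphocytes differed at 1814 of 5097 genes tested (35.6%; 20.0% higher and 15.6% lower in MC38 tumors). Of the 4 receptors above the filter, 3 were called. These 3 were low in the TDLN sums and entered the filter through the tumor sums, so neither their number nor their direction is support. Klrk1 was higher by 3.62 on the log2 scale (SE 0.29, edgeR adjusted p = 3.15e-09), Klrc1 by 2.93 (SE 0.30, edgeR adjusted p = 9.68e-08), and Klre1 by 1.34 (SE 0.43, edgeR adjusted p = 0.0192), and the Klrd1 difference was 0.25 (SE 0.18, edgeR adjusted p = 0.293). The Klre1 call was lost with DESeq2 (adjusted p = 0.353) and without MC38 reaction 1, MC38 reaction 2, or TDLN reaction 2 (edgeR adjusted p = 0.178, 0.0866, and 0.0528). Klrg1 was under the filter here. Tissue, tumor line, sorting, Cell Ranger version, and possibly the count of days changed together, so their parts cannot be told apart.

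The limit of 2500 genes per barcode bears on these values. Without it, the MC38 CD3-positive cytolytic class grew to 249 and 236 barcodes, and the summed level of the 9 receptors fell from 787 to 165 CPM. UMIs of all genes in that class rose from 315208 and 298852 to 2313285 and 1869992, and its Klrd1 UMIs rose from 207 to 298. The lower CPM therefore does not mean fewer receptor UMIs. Which cells the added barcodes hold was not tested. The tissue difference of Klrd1 became −1.63 (edgeR adjusted p = 2.75e-14) and that of Klre1 −0.71, while Klrk1 and Klrc1 were called higher in tumors by smaller differences (1.66 and 1.18), and Klra7 (−3.24) and Klrb1c (−1.79), both under the filter in the comparison above, were called lower by edgeR. Within MC38 tumors, Klra7 (3.61), Klrb1c (3.09), and Klre1 (1.68) were called higher in CD3-negative cells, each by a smaller difference than with the limit.

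**Figure D3:**
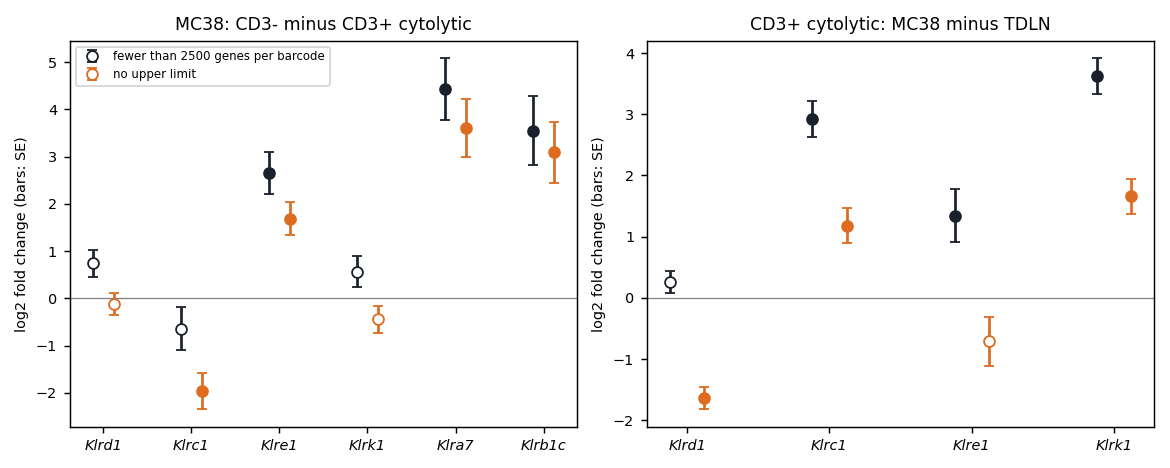
Log2 fold changes with SE for the receptors above the filter, CD3-negative minus CD3-positive cytolytic lymphocytes of MC38 tumors (left) and MC38 minus TDLN in CD3-positive cytolytic lymphocytes (right), with fewer than 2500 genes per barcode (black) and with no upper limit (orange). Filled points passed an adjusted p of 0.05; Klra7, Klrb1c, and Klre1 on the left and Klrk1 and Klrc1 on the right are filled under both limits, whereas Klrd1 on the right moves from 0.25 to −1.63.

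A ratio to Klrd1 within the same barcodes does not depend on their total UMIs, although RNA from other cells can add to either gene. MC38 myeloid barcodes held Klrk1 at 5.19 CPM and Klrd1 at 1.21 CPM, and the part of such RNA was not tested. The ratio was computed after the values above had been seen, and it is compared between classes only, not as a level of 1 gene against another. For each 100 Klrd1 UMIs, CD3-positive cytolytic lymphocytes had 8.56, 6.45, and 6.25 UMIs of Klrc1 in TDLN reactions 1 to 3 and 40.4 and 50.4 in the MC38 reactions. For Klrk1 these values were 6.76, 5.12, and 6.25 in TDLNs and 55.3 and 62.8 in tumors.

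Neither range overlapped between the tissues. Summed over reactions and without the limit on genes, Klrc1 had 7.18 per 100 Klrd1 UMIs in TDLNs and 51.7 in tumors, where the tumor value was 45.9 with it. Klrk1 had 5.60 and 56.7, against 5.58 and 59.4. Klre1 had 5.49 and 10.4, against 5.46 and 11.6. In CD3-negative lymphocytes, Klrc1 had 0, 80.0, and 125 per 100 Klrd1 UMIs in TDLN reactions 1 to 3 and 11.3 and 25.6 in the MC38 reactions. The ranges overlapped, and reaction 3 of the TDLNs is 1 barcode.

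**Figure D4:**
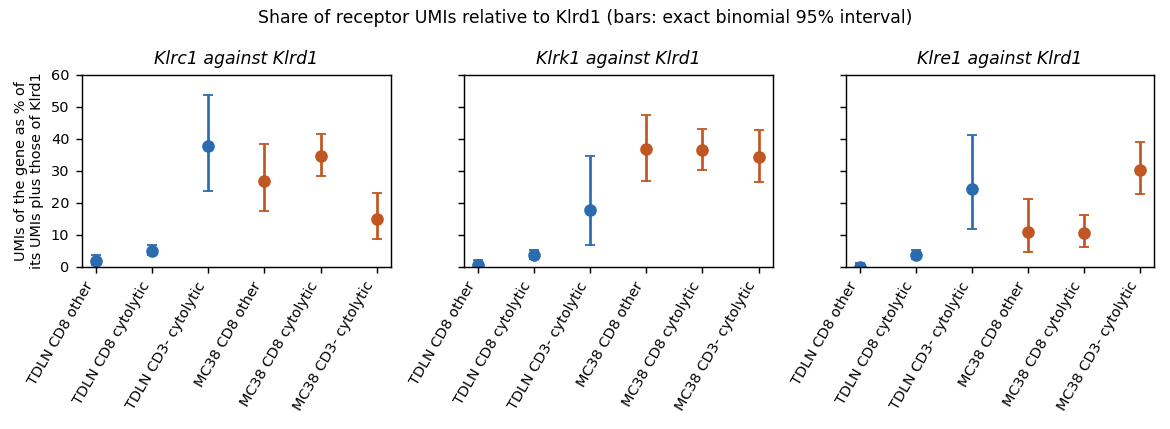
UMIs of Klrc1, Klrk1, and Klre1 as a percentage of their own plus the Klrd1 UMIs, summed over reactions, in CD8 lymphocytes outside and inside the cytolytic gate and in CD3-negative cytolytic lymphocytes, with exact binomial 95% intervals. The TDLN CD8 points lie below the tumor CD8 points for all 3 genes, and the Klrc1 point of TDLN CD3-negative lymphocytes rests on 17 UMIs from 5 barcodes. The intervals take UMIs as independent and cover counting error only.

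CD3-negative lymphocytes between MC38 tumors and TDLNs gave 59 calls in 522 genes (11.3%). Klrd1 and Klrc1 were the receptors above the filter, and neither was called. Klrd1 differed by −0.17 (SE 0.50, edgeR adjusted p = 0.841) and Klrc1 by −1.89 (SE 0.75, edgeR adjusted p = 0.0828), and Klrc1 passed without TDLN reaction 1 (−2.45, edgeR adjusted p = 0.0166), the reaction where it had 0. That value is no support, since it leaves the 2 TDLN reactions where Klrc1 was high. With no upper limit on genes, Klrd1 (−3.20) and Klrc1 (−5.23) were both called lower in tumors by edgeR, and Klra8, which was under the filter at the settings above, was called lower without TDLN reaction 3 (−2.09) and without T cell receptor UMIs (−3.51).

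Several receptors were found on 1 barcode in both classes. At least 3 of the 9 genes were detected on 22.9% of CD3-negative and 3.17% of CD3-positive cytolytic barcodes in TDLNs, and on 27.7% and 5.26% in MC38 tumors, although CD3-negative barcodes had fewer UMIs. None was detected on 62.9% of CD3-negative and 44.0% of CD3-positive cytolytic barcodes in TDLNs, and on 33.0% and 33.9% in MC38 tumors. These shares pool the reactions and were not tested across them. No TDLN CD8 barcode outside the cytolytic gate had 3, and 43.1% of them had exactly 1. Any receptor was detected on 56.0% of CD3-positive cytolytic barcodes in TDLNs and on 66.1% in tumors, and after each barcode was thinned to 800 UMIs these shares were 22.9% and 46.3%.

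**Figure D5:**
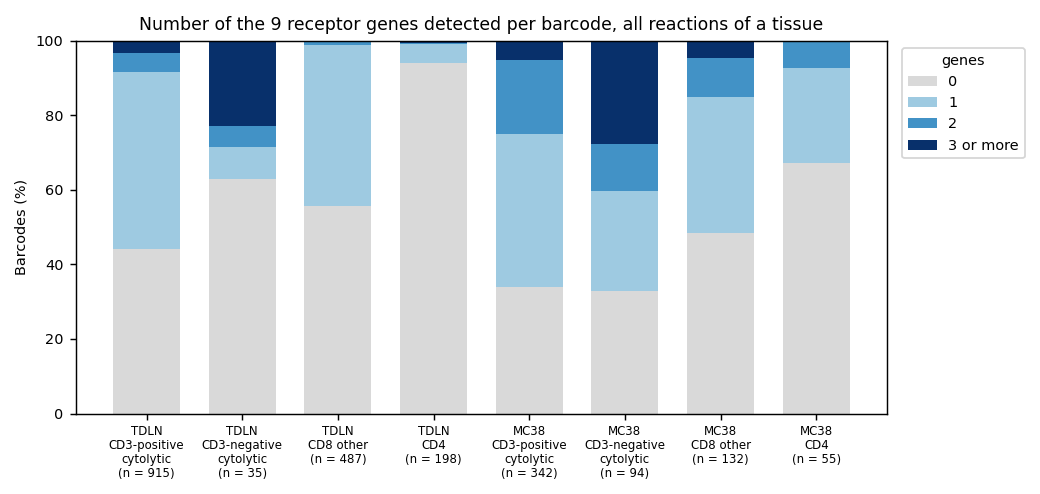
Share of barcodes (%) with 0, 1, 2, or 3 or more of the 9 receptor genes detected, for 8 classes with all reactions of a tissue together. The darkest segment, 3 or more genes, takes 22.9% and 27.7% of CD3-negative barcodes and at most 5.26% of the other classes.

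Klrc1 and Klrd1, whose products pair, were not always seen on the same barcode. Of 74 Klrc1-positive CD3-positive cytolytic barcodes in MC38 tumors, 32 also held Klrd1 (43.2%, against 38.4% of the rest). In TDLNs the count was 28 of 42 (66.7%, against 50.5%). Among CD8 barcodes of tumors, pooled over reactions, the shares were 44.1% against 47.1% inside the cytolytic gate and 26.3% against 32.7% outside it. Inside the gate the tumor reactions differed in direction, with 34.8% against 45.5% in reaction 1 and 50% against 48.6% in reaction 2. Among CD8 barcodes of TDLNs the pooled shares were 68.0% against 55.5% inside the gate. Outside it they were 66.7% against 43.8%, on 3 Klrc1-positive barcodes. Inside the gate, TDLN reaction 1 had 57.1% against 60.9% and reaction 2 had 70.6% against 54.7%. Reaction 3 had 1 Klrc1-positive barcode there, which held Klrd1. In CD3-negative lymphocytes 8 of 12 Klrc1-positive barcodes of tumors held Klrd1 (66.7%, against 36.6%), and 4 of 5 in TDLNs. For the NK markers Ncr1 and Klrb1c, which do not pair, Ncr1-positive CD3-negative barcodes held Klrb1c in 6 of 13 cases in tumors (46.2%, against 13.6% of the rest) and 4 of 7 in TDLNs (57.1%, against 10.7%), beside 3 of 6 in CD3-positive cytolytic barcodes of TDLNs. Differences between classes in these shares were not tested. With few UMIs of each gene per barcode, a gene without a UMI was not detectable at this depth and is not shown to be absent.

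The other genes of the receptor system, 47 on fixed lists of adaptors, further receptors, ligands, and transcription factors, were read from the same fits. In CD3-negative against CD3-positive lymphocytes of MC38 tumors, 17 were tested, 5 were higher (beside 0.965% of all genes), and 0 lower, with a median log2 difference over the 17 of −0.31 beside 0.01 over all genes tested. The 5 were Tyrobp (3.49), Fcer1g (2.40), the adaptor shared by NKp46 and Fc receptors, the receptors Klra4 (3.29) and Klrb1b (3.61), and Eomes (2.39), a T-box factor that is also on the cytolytic gate. Receptor genes such as Klra4 and Klrb1b could pass the filter through the CD3-negative sums alone, so the count is no support. In TDLNs 2 of 7 were higher, Tyrobp (6.08) and Fcer1g (5.49), and 0 lower, beside 2.76% of all genes in either direction. Tyrobp was on 26 and Fcer1g on 37 of the 915 CD3-positive barcodes, so both could pass the filter through the CD3-negative sums. For that reason this count is no support either.

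Between the tissues, 9 of 18 tested were higher and 2 lower in CD3-positive lymphocytes of MC38 tumors, beside 20.0% and 15.6% of all genes. The median was 0.49 beside −0.01 over all genes tested. Genes low in TDLNs could pass the filter through the tumor sums alone, so the count is no support. Fcer1g and Tyrobp, for example, were on 37 and 26 of the 915 TDLN barcodes. Tbx21, the factor T-bet, rose by 4.01, Fcer1g by 3.63, Tyrobp by 2.90, and Hcst, the adaptor DAP10 of NKG2D, by 0.42. Fcer1g and Tyrobp were on 33.6% and 20.8% of these tumor barcodes, 35.0% and 18.8% of non-immune ones, and 99.4% and 98.4% of myeloid ones, and the part of other cells' RNA in their difference was not tested. The ligand genes Raet1e and Clec2i fell by 1.84 and 1.56. In CD3-negative lymphocytes 0 of 7 passed with edgeR, beside 11.3% of all genes.

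Over 29 sums of a class and a reaction, the genes whose levels ran most closely with the mean of the 6 receptors that had at least 50 UMIs in these sums (Klrd1, Klrc1, Klre1, Klrk1, Klra7, and Klrb1c) were Klri2 (Pearson r = 0.90), Nkg7 (0.88), Ccl5 (0.86), Ctsw (0.86), Serpinb9 (0.85), Il18rap (0.85), Padi2 (0.85), Serpinb6b (0.84), Il2rb (0.83), and Xcl1 (0.83), out of 13064 genes. Nkg7, Ctsw, Il2rb, and Xcl1 are on the list that set the cytolytic gate. The sums share libraries and differ in depth, and the correlations are a description.

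MC38 reactions also carried antibodies to 4 of the receptors, while antibody counts were 0 in TDLNs. The 15-base tags that stand for these proteins are shown because they are how each was counted.
CD94 (Klrd1): cacagttgtccgtgt
NK-1.1 (Klrb1c): gtaacattactcgtc
KLRG1 (Klrg1): gtagtaggctagacc
Ly49H (Klra8): ccagtaggcttatta
Antibody counts were close between lymphocytes and myeloid cells. In reaction 1, the median CD94 count was 31 in both CD3-positive and CD3-negative cytolytic lymphocytes and 32 in myeloid barcodes, and the median CD3 count was 113, 96, and 118 in these classes, although myeloid cells lack CD3. Scaled to 10000 antibody counts of a barcode, CD94 medians were 54.0, 57.03, and 44.1 in these classes in reaction 1 and 57.5, 56.0, and 47.0 in reaction 2, and CD3 medians were 186, 189, and 166, then 199, 190.0, and 173. The median KLRG1 count was 94 on 9 barcodes with Klrg1 RNA and 56 on 393 without in reaction 1, and 75 on 12 and 51 on 362 in reaction 2. Scaled as above, KLRG1 medians were 115 and 102, then 115 and 97.9. NK-1.1 medians were 24.5 with and 22 without Klrb1c RNA in reaction 1 and 28 and 22 in reaction 2, and Ly49H medians were 92.5 on 2 barcodes with Klra8 RNA and 74 without, then 58 on 6 and 72. Scaled in the same way, NK-1.1 medians were 50.5 and 40.8, then 49.9 and 41.4, and Ly49H medians were lower with Klra8 RNA in both reactions, at 127 and 135, then 127 and 138. CD94 medians were 32.5 with and 29 without Klrd1 RNA in reaction 1 and 31 and 30 in reaction 2. No test was run with 2 reactions.

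Treatments were read from the MC38 hashtags with the deposited key. By a mixture fit, 456 of 486 CD3-positive barcodes given a treatment fell to CPI (93.8%), 26 to isotype, 2 to CPI + ABT-317, and 2 to isotype + ABT-317. By the hashtag that led by 1 natural-log unit, 104 of 142 fell to CPI (73.2%), 19 to isotype, 15 to CPI + ABT-317, and 4 to isotype + ABT-317. The rules disagreed, and under the limit of 2500 genes each treatment comparison had a sum under 20 barcodes, so receptor levels were not compared between treatments. The cytolytic classes also differed in their mix. By the mixture fit, CPI took 224 of 240 CD3-positive (93.3%) and 48 of 67 CD3-negative barcodes given a treatment (71.6%). By the lead rule it took 61 of 82 and 1 of 20. The part of treatment in the MC38 class differences was not tested.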

How the data were processed

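The authors deposited UMI counts per gene and barcode from 10x 5′ libraries, without normalization, as 3 TDLN and 2 MC38 tumor matrices; per the file headers, TDLN matrices were written by Cell Ranger 7.1.0 and tumor matrices by 8.0.1, while the submitters' processing notes name Cell Ranger 3.1.0 and GRCm38/mm10. The receptor genes and all gene lists were chosen with earlier results of these data known. Barcodes were gated as described, with thresholds (B cell UMIs under 0.3%, myeloid and non-immune UMIs under 0.5%) set from the lists' own distributions and without reading the 9 genes. No doublet caller was run, and barcodes with UMIs of a second lineage were set aside. All 9 receptors are named, further genes come from fixed lists, and the 10 most similar genes were taken by Pearson correlation of log2(CPM + 10) over sums of at least 20 barcodes, among genes with at least 50 UMIs.

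UMIs were summed per reaction and class, since cells are not replicates, and tested in R 4.3.3 by the quasi-likelihood test of edgeR 4.0.16, after filterByExpr and TMM scaling, with Benjamini-Hochberg adjustment over all genes and a threshold of 0.05. DESeq2 1.42.0, other filters, other gates, a reaction block, and leaving out each reaction were the alternatives. Sums with 1 number in both classes come from the same pool, so the numbers pair them, and deviations from the class means correlated at 0.23, −0.0092, and 0.11 in TDLNs and 0.22 in both MC38 reactions. On simulated counts with 163 genes changed in the TDLN comparison of classes, edgeR called 101 of them and 4 unchanged genes, and DESeq2 called 70 and 245. There edgeR tested 592 genes and DESeq2 14299. Unchanged genes called by edgeR and DESeq2 were 2 and 11 in the MC38 comparison of classes. Between the tissues they were 6 and 5 in CD3-positive and 1 and 9 in CD3-negative lymphocytes. Levels have exact Poisson and shares exact Clopper-Pearson 95% intervals, and 0 counts were given a floor of 3. Python 3.11.15 with scipy 1.17.1 was used.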

Additional observations from a re-analysis of the deposited data

Results flagged for a closer look

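The difference between CD3-negative and CD3-positive cytolytic lymphocytes was tested between the tissues, and for Klrc1 it differed by −4.50 on the log2 scale. The test was chosen after the Klrc1 values had been seen, and its TDLN side rests on 17 CD3-negative UMIs from 5 barcodes, so it is no independent evidence. T cell receptor UMIs were on 4 of those 5 barcodes. Leaving out TDLN reaction 2 or 3 ended the call, as given above.

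A signal also appeared outside the comparisons. TDLN barcodes with UMIs of both T and B cells, which no comparison used, held 383 UMIs of Ncr1 in 374 of 80961 barcodes (0.462%) and 496 UMIs of Klra8 in 478 barcodes (0.590%), where TDLN B barcodes held 0 UMIs of either gene in 803 barcodes, which allows up to 0.374% by a floor of 3 barcodes. The exact Clopper-Pearson 95% interval of the Ncr1 share, 0.416% to 0.511%, overlaps that of the B barcodes, which reaches 0.458%, whereas that of Klra8, 0.539% to 0.646%, does not. B barcodes were shallower, with median UMIs of 1404, 1074, and 1727 against 2049, 1823, and 2002. The levels of Ncr1 and Klra8 were 2.27 and 2.94 CPM, where a floor of 3 UMIs allows the B barcodes 2.56 CPM, and the exact Poisson 95% interval of B barcodes reaches 3.15 CPM, so by level neither gene was shown to be above them. The levels were 189 and 314 CPM in CD3-negative cytolytic lymphocytes.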

How the results depend on the processing

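In CD3-negative against CD3-positive lymphocytes of TDLNs, 18 calls became 569 with DESeq2 (2.64% higher, against 72.2%), 48 without the filter, 109 (29.4% higher) without T cell receptor UMIs, and 5 to 46 when 1 reaction was left out (5 without reaction 2, 46 without reaction 3). In MC38 tumors, 70 became 120 with the replicate block, 173 (12.7% higher, against 48.6%) with no gene limit, and 33 with 3 cytolytic genes, and DESeq2 gave 22.4% higher of 58. For CD3-positive lymphocytes between the tissues, 1814 became 1170 with DESeq2, 2841 without the filter, 7256 with no gene limit, and 876 with 3 cytolytic genes. For CD3-negative ones, 59 became 117 with DESeq2 (100% higher, against 52.5%), 37 without the filter (86.5% higher), 415 with no gene limit, 3 with 3 cytolytic genes, and 16 to 131 when 1 reaction was left out (24 and 33 without MC38 reactions 1 and 2, 16 and 131 without TDLN reactions 2 and 3). Fewer barcodes or genes entered under the stricter gates, and the cause of the other changes was not tested. The interaction, with 15 calls, had 2 without TDLN reaction 2 and 6 without TDLN reaction 3, 9 without MC38 reaction 1, 24 with no gene limit, and 75 without T cell receptor UMIs.

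The replicate block, which pairs the sums of a reaction, gave 25 calls in TDLNs and changed no receptor call. Directions turned as follows. Klrd1 became −0.45 in TDLNs with DESeq2 and −0.12 in MC38 tumors with no gene limit, where Klrk1 became −0.44. Klrd1 and Klre1 between the tissues became −1.63 and −0.71 with no gene limit in CD3-positive cells, where Klre1 had been called. Klrd1 in CD3-negative cells became 1.02 with DESeq2, 0.55 without the filter, and −0.65 to 0.13 when 1 reaction was left out (0.13 without TDLN reaction 3). In the interaction, Klrd1 became 0.32 and 0.28 without TDLN reaction 3 and MC38 reaction 2, Klre1 0.16 with 3 cytolytic genes and −1.11 to 0.0012 when 1 reaction was left out, Klrb1c −0.86 to 0.16 likewise, and Ncr1 −0.40 with no gene limit. The share of barcodes with any receptor fell to 22.9% and 46.3% in CD3-positive lymphocytes after thinning and to 49.4% in MC38 CD3-negative ones with no gene limit. The summed level of the 9 receptors was 165 and 186 CPM with no gene limit in the MC38 classes, and in TDLN CD3-negative lymphocytes it was 3171 CPM without T cell receptor UMIs and 1844 to 2346 CPM when 1 reaction was left out. Treatment comparisons and their alternatives were not run, since the hashtag rules disagreed and, with the gene limit, each had a sum under 20 barcodes. Leaving out a reaction within MC38 tumors leaves no residual degree of freedom and was not run. TDLN CD3-negative values rest on 35 barcodes.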

Other observations

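In the same TDLN barcodes with UMIs of both T and B cells, Klrd1 was detected in 25.3% of 80961 barcodes at 144 CPM and Klrc1 in 2.30% at 11.4 CPM. The 3 reactions were close, with Klrd1 at 146, 141, and 146 CPM. Of the 9 receptors, Klrd1 was the only one detected in TDLN B barcodes.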
